A study of Mus musculus with 23 samples.

Results

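The H/ACA box small nucleolar RNAs (snoRNAs) were taken as the symbols of the count files that start with Snora. Of 18512 symbols, 35 are of this kind, and the 30 with at least 10 counts in 7 or more mice are described here. The mice were C57BL/6 animals of 6 to 8 weeks, untreated (baseline) or given 8 hourly intraperitoneal injections of caerulein at 50 µg/kg on each of 2 days. Caerulein is a cholecystokinin analogue that overstimulates acinar cells and causes pancreatitis. RNA from the head of the pancreas was sequenced at baseline (4 females and 4 males) and after injury at day 7 (4 females and 4 males) and day 14 (3 females and 4 males). The authors left out a further day 14 female because few of its reads mapped. Groups hold separate mice, no allele was altered, and mice that received injections without caerulein were not analysed here.

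H/ACA box snoRNAs fold into a pair of hairpins with a single-stranded H box between them and the letters ACA close to the end. Each RNA sits in a particle with the proteins dyskerin (Dkc1), Nop10, Nhp2 and Gar1, and base-pairs with ribosomal RNA so that dyskerin can turn a chosen uridine into pseudouridine. In mammals most of them are cut out of introns of host genes, many of which encode ribosomal proteins and other parts of the translation machinery. The acinar cell, the main cell of the pancreas, makes digestive enzymes at a very high rate and carries many ribosomes.

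The sequences of 8 of the 9 snoRNAs that rose at both days, and of Snora78, the one nearest to its baseline level over both days, are shown because the results below turn on them. They are read from GENCODE vM21 transcripts on GRCm38. Capitals mark the ACA box and, where found, an H box (the letters ANANNA in the middle of the RNA, on the RNA strand).
Snora26: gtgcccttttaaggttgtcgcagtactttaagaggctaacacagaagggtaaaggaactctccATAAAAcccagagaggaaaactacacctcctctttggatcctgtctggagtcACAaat
Snora41: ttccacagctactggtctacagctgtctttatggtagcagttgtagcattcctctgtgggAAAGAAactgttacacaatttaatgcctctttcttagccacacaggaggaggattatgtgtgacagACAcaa
Snora24: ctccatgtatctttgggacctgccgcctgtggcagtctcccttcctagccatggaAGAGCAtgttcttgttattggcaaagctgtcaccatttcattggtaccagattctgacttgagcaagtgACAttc
Snora68: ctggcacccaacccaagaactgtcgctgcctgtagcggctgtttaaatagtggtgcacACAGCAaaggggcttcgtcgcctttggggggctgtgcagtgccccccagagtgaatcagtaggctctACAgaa
Snora31: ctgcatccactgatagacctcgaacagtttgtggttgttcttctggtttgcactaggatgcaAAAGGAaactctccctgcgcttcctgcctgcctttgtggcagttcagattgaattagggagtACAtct
Snora23: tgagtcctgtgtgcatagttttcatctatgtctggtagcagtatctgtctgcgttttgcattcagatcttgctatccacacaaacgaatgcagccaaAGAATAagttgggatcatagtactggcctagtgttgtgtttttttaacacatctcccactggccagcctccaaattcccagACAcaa
Snora33: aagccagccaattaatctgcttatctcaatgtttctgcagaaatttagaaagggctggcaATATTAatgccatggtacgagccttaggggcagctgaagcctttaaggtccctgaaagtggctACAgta
Snora52: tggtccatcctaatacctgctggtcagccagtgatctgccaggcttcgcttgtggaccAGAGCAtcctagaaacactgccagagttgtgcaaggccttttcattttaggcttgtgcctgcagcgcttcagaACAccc
Snora78: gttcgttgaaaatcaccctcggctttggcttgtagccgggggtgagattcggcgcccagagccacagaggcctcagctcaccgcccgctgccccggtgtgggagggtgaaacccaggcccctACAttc

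Over all 30 members, 28 had ACA within the last 10 bases (24 of them exactly 3 bases before the end) and 27 had ANANNA between 35 and 65% of their length. Of 67 C/D box snoRNAs, the other large class, which guides ribose methylation, 7 (10.4%) held ACA at the end and 15 (22.4%) ANANNA in the middle. Snora78 had no ANANNA in that window. The members were 121 to 196 bases long (median 132).

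The members lie in 27 host genes. Host genes for ribosomal proteins hold 11 members, long non-coding RNAs 9, translation factors 3 and other protein-coding genes 7. On GRCm38, Snora26 (chr5:74093530-74093650, plus strand) lies in Dancr, a long non-coding RNA, and Snora41 (chr1:63179004-63179135, plus strand) in an intron of Eef1b2, a subunit of the elongation factor complex that recharges eEF1A. Snora24 (chr3:123507937-123508066, minus strand) lies in the long non-coding RNA Snhg8. Snora31 (chr14:75847905-75848034, plus strand) lies in an intron of Tpt1, translationally controlled tumour protein, and Snora23 (chr7:110046364-110046547, plus strand) in an intron of Ipo7, an importin. Snora68 lies at chr8:70895759-70895889 on the minus strand. Of the others that rose at both days, Snora62 lies in the ribosomal protein gene Rpsa, Snora33 (chr10:23785347-23785475, minus strand) in Rps12 and Snora52 (chr7:141448803-141448939, plus strand) in Rplp2. Snora78 (chr17:24719676-24719803, minus strand) lies in an intron of the non-coding Snhg9 and, read on the opposite strand, within Rps2.

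The files held 7059890 to 9567446 counts of read fragments per mouse, and 3247 to 11940 of them fell on the 30 members. By the paper's supplement, most baseline libraries had lower mapping rates and higher duplicate rates than those after injury. RNA integrity tended to be lowest at day 14. The paper found no significant correlation of RNA integrity with mapping or with the main patterns of expression. The part of library quality in the changes of the snoRNAs was not tested. Levels are given as CPM (counts scaled to a fixed library total) after TMM scaling, edgeR's correction for libraries dominated by a few transcripts. Acinar markers were abundant in every mouse: the 8 markers summed to 363431 to 528099 CPM (baseline), 211738 to 326056 CPM (day 7) and 328184 to 394293 CPM (day 14). The 7 macrophage markers summed to 29.4 to 101, 58.7 to 137 and 40.3 to 78.1 CPM, and the 6 fibroblast markers to 311 to 622, 589 to 1137 and 495 to 702 CPM, in the same order. The 5 duct markers stayed between 25.6 and 48.4 CPM and the 4 endothelial markers between 48.8 and 103 CPM, with overlapping groups. The 6 islet markers ranged from 122 to 510, 363 to 1083 and 411 to 801 CPM. Lymphocyte markers were low apart from single mice (6 markers, 0.117 to 68.6 CPM, each of Cd3e, Cd3d, Cd79a and Cd8a at 0 counts in a mouse of every group), as were the 2 neutrophil markers (0 to 13.7 CPM). The acinar, macrophage, fibroblast and islet levels moved with time, and their part in the changes of the snoRNAs was not tested. In bulk tissue, fewer cells of a type and less RNA per cell cannot be told apart.

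Levels differed widely between members. At baseline the CPM per kilobase of RNA ran from 6.03 for Snora43 to 618 for Snora68. Snora68, Snora78, Snora7a, Snora74a and Snora70 had the highest levels on this scale, and the 5 members with the most counts held 60.0% of the members' counts at baseline. Of the 30 members, 24 had at least 10 counts in all 8 baseline mice. The minimum was met by Snora24 and Snora47 through the injured mice: they reached 10 counts in 1 and 2 of 8 baseline mice but in all 15 mice after injury. Snora43 was just inside the minimum, with 10 counts in 1 baseline, 7 day 7 and 1 day 14 mice. A member that enters the list through the group in which it is high is more likely to differ, so its rise is in part set by this selection. The minimum is on raw counts, and a member need not differ after scaling: Snora47 had a mean of 1.18 CPM at baseline and 1.28 CPM at day 7. Just outside was Snora75, with 10 counts in 3 mice and 13 at most. Snora19, Snora20, Snora2b and Snora36b never reached 10 counts.

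Compared with baseline, the H/ACA box snoRNAs were higher at day 7. A differentially expressed gene (DEG) is one with a Benjamini-Hochberg adjusted p of at most 0.05 in edgeR's quasi-likelihood test, fitted on 12195 genes with sex as a covariate, and a change of at least 1.5-fold. By this rule 11 of the 30 members rose and 0 fell at day 7, whereas 3.82% of all genes tested rose. All 30 members had a positive log2 fold change (53.7% of all genes), with a median of 0.51 against 0.02 over all genes. The 30 include Snora24, Snora47 and Snora43, which met the count minimum through mice after injury. Their values were thus in part set by that selection. Without the fold threshold 21 members rose, against a background of 8.86%. DESeq2 called 11 members as well. The authors of the paper could not establish the differential expression of snoRNAs by RT-qPCR, for which they tested Snora16a, Snora41 and Snora52. They describe RT-qPCR of snoRNAs as technically difficult. Their own RNA-seq test did call several snoRNAs higher at day 7 and day 14. They also read the coverage of the same RNAs as a change after injury, while stating that coverage is no test of significance.

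At day 14, 14 of the 30 members were DEGs, all higher, whereas 0.697% of all genes rose. Again all 30 log2 fold changes were positive (51.6% of all genes), with a median of 0.55 against 0.01 over all genes. The same limit holds for Snora24, Snora47 and Snora43. Without the fold threshold 18 members rose (background 1.05%), and DESeq2 called 14. The 14 calls fell to 9 when mouse 24 was left out. Day 7 and day 14 were compared with the same baseline mice, so their fold changes are not independent of each other. At both days 9 members rose, 2 rose at day 7 only and 5 at day 14 only, and the remaining 14 did not pass at either day. These counts include Snora24, which met the count minimum through the injured mice. With at least 10 counts required in every mouse, 9 and 12 of 24 members were called.

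**Figure D1:**
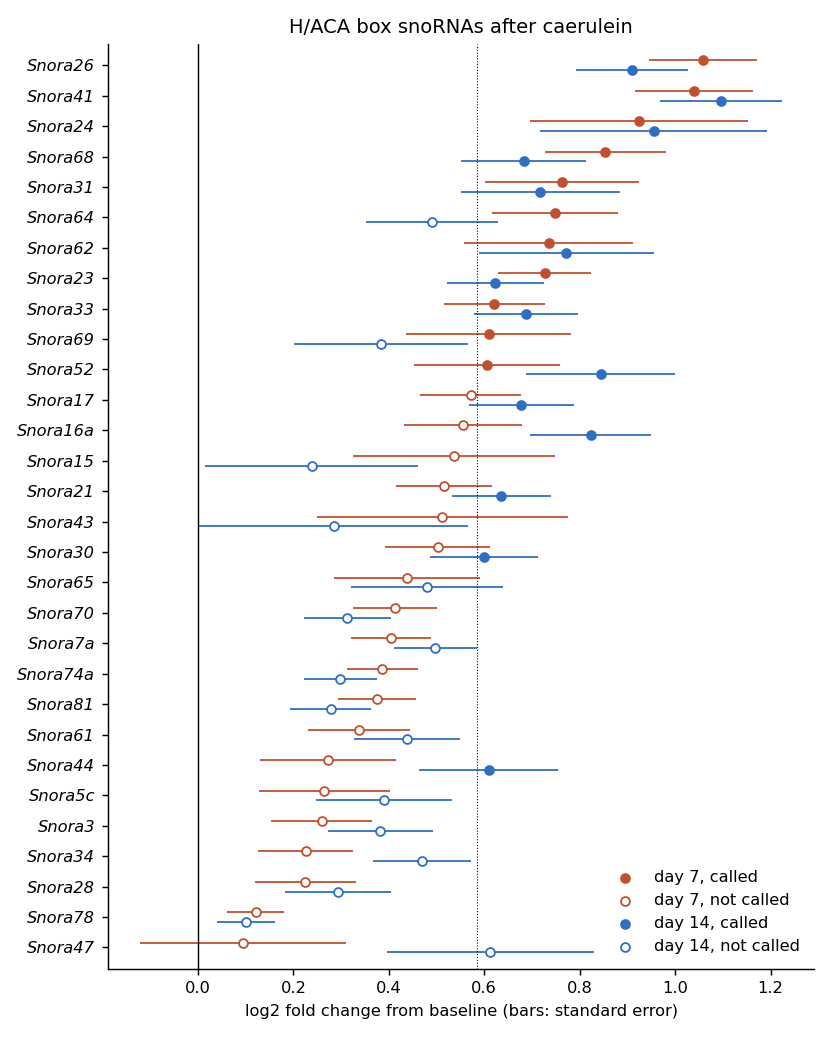
Log2 fold change from baseline of the 30 H/ACA box snoRNAs at day 7 (red) and day 14 (blue), with the standard error derived from the test as bars. Filled points are DEGs (11 at day 7 and 14 at day 14), the dotted line marks 1.5-fold, and every point lies to the right of 0, from 0.09 (Snora47) to 1.06 (Snora26) at day 7.

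The largest changes at day 7 were those of Snora26 and Snora41, and at day 14 those of Snora41 and Snora24. Snora26 had 10.1, 13.8 and 16.5 CPM (lowest, median and highest mouse) at baseline, 22.3, 27.9 and 33.9 CPM at day 7, and 16.99, 26.6 and 31.4 CPM at day 14. Every mouse after injury was thus above every baseline mouse. Its log2 fold change was 1.06 ± 0.11 (SE) at day 7 (edgeR adjusted p = 3.71e-07) and 0.91 ± 0.12 at day 14 (adjusted p = 4.94e-05).

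Snora41 had 8.26, 12.5 and 14.8 CPM at baseline, 20.8, 24.4 and 32.2 CPM at day 7 and 16.99, 27.0 and 31.8 CPM at day 14. The groups after injury did not overlap with baseline either, and day 14 was as high as day 7. The log2 fold changes were 1.04 ± 0.12 (adjusted p = 2.21e-06) and 1.10 ± 0.13 (adjusted p = 2.2e-05), which is 2.06-fold and 2.14-fold. The calls of Snora26 and Snora41 at both days held when any single mouse was left out.

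Snora23, which is longer than most members at 184 bases, was the third member with no overlap at either day. It had 31.5, 33.7 and 39.8 CPM at baseline, 43.9, 55.4 and 70.7 CPM at day 7 and 42.8, 52.4 and 67.2 CPM at day 14. The log2 fold change was 0.73 ± 0.10 at day 7 (adjusted p = 1.1e-05) and 0.62 ± 0.10 at day 14 (adjusted p = 0.000953). The day 14 call was lost without mouse 17 or mouse 24.

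Snora68 was the most abundant member per length. It had 69.8, 78.1 and 109 CPM at baseline, 125, 147 and 174 CPM at day 7 and 79.6, 137 and 164 CPM at day 14. At day 7 all 8 mice were above every baseline mouse, and at day 14 5 of 7 were: mouse 22 and mouse 23 fell within the baseline range. The log2 fold change was 0.85 ± 0.13 (adjusted p = 7.2e-05) and then 0.68 ± 0.13 (adjusted p = 0.00567).

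Snora33 had 4.20, 4.66 and 6.45 CPM at baseline, 6.18, 7.53 and 8.72 CPM at day 7 and 7.07, 7.78 and 9.42 CPM at day 14. All 7 day 14 mice and 7 of 8 day 7 mice were above the baseline range. The log2 fold changes were 0.62 ± 0.11 (adjusted p = 0.000166) and 0.69 ± 0.11 (adjusted p = 0.000661).

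The other 4 members that rose at both days were of low abundance. Snora31 had 2.44, 3.58 and 5.81 CPM at baseline, 5.57, 6.86 and 7.56 CPM at day 7 and 4.03, 6.49 and 8.18 CPM at day 14. Snora62 had 1.53, 2.14 and 3.13 CPM at baseline, 2.10, 3.60 and 4.72 CPM at day 7 and 3.26, 3.59 and 5.30 CPM at day 14. Both overlapped with baseline at day 7, and Snora62 did not at day 14. Their log2 fold changes were 0.76 ± 0.16 and 0.72 ± 0.17 for Snora31, and 0.74 ± 0.18 and 0.77 ± 0.18 for Snora62, at day 7 and day 14.

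Snora52 had 2.17, 2.43 and 4.07 CPM at baseline, 3.24, 4.39 and 5.25 CPM at day 7 and 3.52, 5.22 and 5.63 CPM at day 14, with log2 fold changes of 0.61 ± 0.15 and 0.84 ± 0.16. Snora24 had 0.694, 1.07 and 1.84 CPM at baseline, 1.56, 2.19 and 3.24 CPM at day 7 and 1.68, 2.21 and 3.08 CPM at day 14. Its log2 fold changes were large (0.92 ± 0.23 and 0.95 ± 0.24) but its groups overlapped. In counts, Snora24 had 4 to 12 per baseline mouse and 14 to 36 per mouse after injury.

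Some of these calls depended on single mice. At day 14, Snora24 was no longer called without any of 9 mice (2, 3, 4, 5, 6, 19, 21, 22 or 24), Snora31 without any of 5 (2, 8, 17, 19 or 24) and Snora62 without any of 4 (1, 8, 19 or 24). At day 7, Snora52 was lost without any of 8 mice (1, 2, 4, 6, 8, 10, 11 or 16). The day 7 calls of Snora24, Snora31 and Snora62 and the day 14 call of Snora52 held without any single mouse.

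**Figure D2:**
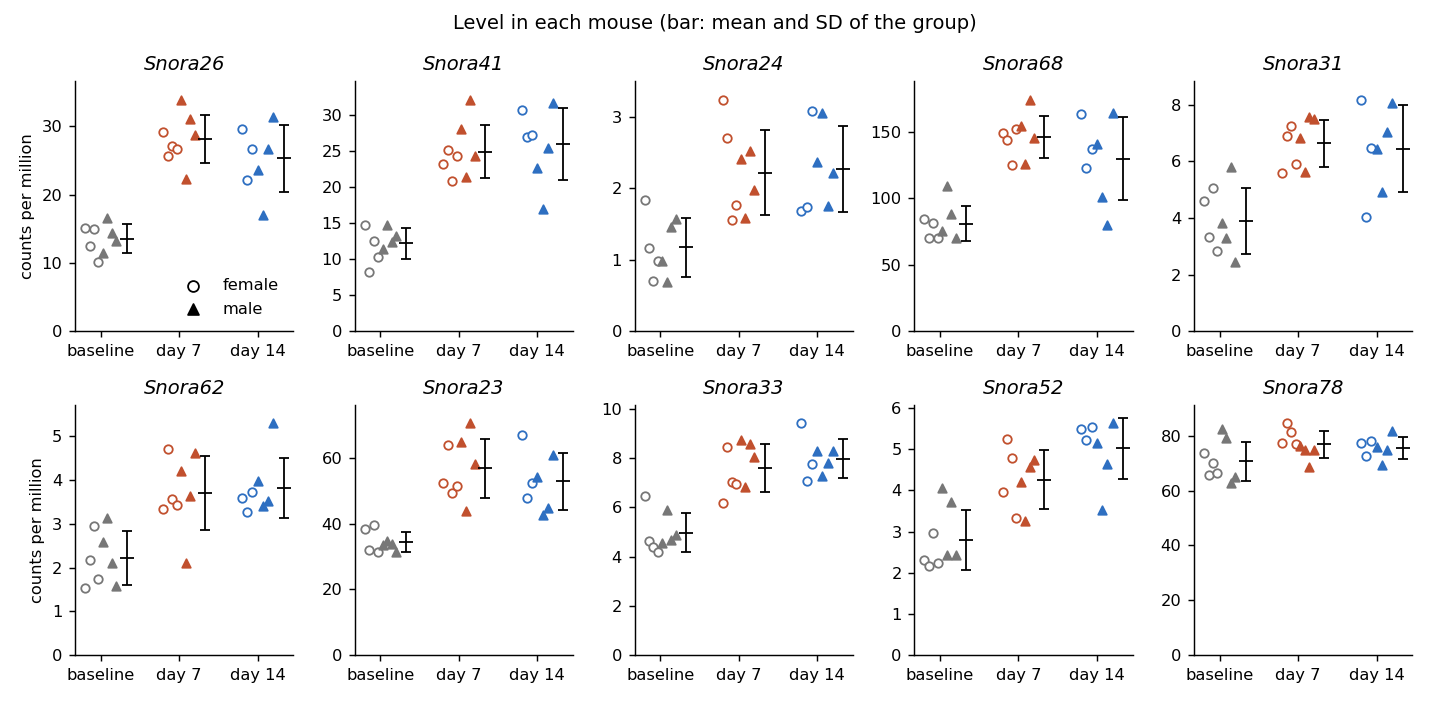
Level of the 9 snoRNAs that rose at both days and of Snora78 in each mouse, in CPM from 0 on a linear scale, with open circles for females, filled triangles for males and the mean ± SD of the group in black. All Snora26, Snora41 and Snora23 values after injury lie above the baseline mice, whereas those of Snora78 overlap (62.8 to 82.7 CPM at baseline, 68.5 to 84.7 CPM at day 7).

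At day 7 only, Snora64 and Snora69 rose. Snora64, which lies in Rps2, had a log2 fold change of 0.75 ± 0.13 (adjusted p = 0.000246) at day 7 and 0.49 ± 0.14 (adjusted p = 0.0722) at day 14, and its 8 day 7 mice (7.24 to 12.1 CPM) were above the baseline mice (4.06 to 6.79 CPM). For Snora69, in the X-linked gene Rpl39, the values were 0.61 ± 0.17 (adjusted p = 0.0135) and 0.38 ± 0.18 (adjusted p = 0.358). The day 7 call of Snora69 was lost without any of 6 mice (3, 7, 8, 9, 12 or 15).

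At day 14 only, Snora16a, Snora17, Snora21, Snora30 and Snora44 rose. Snora16a, in the long non-coding RNA Snhg12, had 6.20, 7.66 and 9.20 CPM at baseline, 8.68, 10.8 and 13.7 CPM at day 7 and 8.91, 15.02 and 15.9 CPM at day 14. It changed by 0.56 ± 0.12 (log2) at day 7 and, at day 14, by 0.82 ± 0.13 (adjusted p = 0.00044). The change at day 7 was close to 1.5-fold, and it passed when mouse 1, 6 or 14 was left out.

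The other 4 were below the fold threshold at day 7, Snora44 by the widest margin. At day 7 and day 14 the log2 fold changes were 0.57 and 0.68 for Snora17, 0.52 and 0.64 for Snora21, 0.50 and 0.60 for Snora30, and 0.27 and 0.61 for Snora44. All 8 day 7 mice were above the baseline range for Snora17, and all 7 day 14 mice for Snora21. Snora17 passed at day 7 without any of 5 mice (3, 5, 9, 10 or 14). The day 14 call was lost for Snora44 without any of 10 mice (1, 2, 3, 4, 7, 8, 17, 18, 19 or 21) and for Snora30 without any of 6 (2, 4, 8, 17, 21 or 24).

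Of the members, 6 did not overlap with baseline at day 7 (Snora17, Snora23, Snora26, Snora41, Snora64 and Snora68), against 1.16% of all genes in that direction. At day 14 it was also 6 (Snora21, Snora23, Snora26, Snora33, Snora41 and Snora62), against 0.435%.

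The smallest differences were those of Snora47, Snora78 and Snora28 at day 7 and of Snora78, Snora15 and Snora81 at day 14, where Snora43 followed closely (0.28 for both Snora81 and Snora43). Snora78, among the most abundant members, had 62.8, 68.2 and 82.7 CPM at baseline, 68.5, 76.8 and 84.7 CPM at day 7 and 69.3, 76.0 and 81.7 CPM at day 14. The ranges of the groups overlapped, although every mouse after injury was above the baseline median. Its log2 fold change was 0.12 ± 0.06 (95% interval -0.001 to 0.24, adjusted p = 0.159) at day 7 and 0.10 ± 0.06 (95% interval -0.03 to 0.23, adjusted p = 0.515) at day 14. These intervals leave out a 1.5-fold change, since the depth behind Snora78 was high (374 to 1130 counts per mouse).

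Snora28, in the translation initiation factor gene Eif5, had 8.90, 10.9 and 11.8 CPM at baseline, 9.02, 12.6 and 15.1 CPM at day 7 and 9.26, 13.6 and 15.2 CPM at day 14, with overlapping groups. Snora47 had 0.522, 1.18 and 1.85 CPM at baseline, 1.03, 1.26 and 1.78 CPM at day 7 and 1.21, 1.81 and 2.39 CPM at day 14. The log2 difference from baseline was 0.09 ± 0.22 (day 7) and 0.61 ± 0.22 (day 14, adjusted p = 0.175), so a change could not be resolved at 3 to 20 counts per mouse. Snora81, in the translation initiation factor gene Eif4a2, had 27.9, 30.8 and 35.5 CPM at baseline, 33.9, 39.9 and 49.7 CPM at day 7 and 31.0, 41.1 and 42.7 CPM at day 14. Its groups overlapped, and its log2 fold change was 0.37 ± 0.08 (adjusted p = 0.00191) and then 0.28 ± 0.08 (adjusted p = 0.101). Snora15 went from 0.869, 2.28 and 3.13 CPM to 1.93, 3.15 and 4.39 CPM and then 1.76, 2.02 and 4.64 CPM. Snora43 went from 0.323, 0.840 and 1.38 CPM to 0.661, 1.24 and 1.504 CPM and then 0.638, 0.994 and 1.52 CPM. In both Snora15 and Snora43, the groups overlapped and the adjusted p stayed above 0.05 (0.0768 and 0.179 at day 7, 0.717 and 0.772 at day 14).

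Among the 14 members that were not DEGs, 7 had an adjusted p of at most 0.05 at day 7 or day 14 with changes below 1.5-fold. These were Snora61, Snora81, Snora74a, Snora7a, Snora70, Snora65 and Snora34. Snora7a, with 62.1, 69.6 and 79.3 CPM at baseline, 77.7, 92.8 and 112 CPM at day 7 and 73.0, 100 and 117 CPM at day 14, is an example of an abundant member with an increase below the fold threshold (log2 fold change 0.40 ± 0.08 and 0.50 ± 0.09).

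Day 14 was compared directly with day 7 to see whether the snoRNAs had returned towards baseline. In edgeR 0 of 30 members were DEGs, 4 had an unadjusted p under 0.05, DESeq2 called 0, and 0.377% of all genes were called. The median log2 fold change was 0.05, with 18 positive and 12 negative. With total count scaling 27 of the 30 were negative and the median was -0.20, but there the median over all genes was -0.26. The 4 members with an unadjusted p under 0.05 were Snora47, Snora34, Snora44 and Snora16a, all higher at day 14. For Snora26 the log2 difference was -0.15 (95% interval -0.37 to 0.07) and for Snora41 0.06 (95% interval -0.19 to 0.30).

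The members together made up a larger share of the library after injury. Summed over the 30 members, their share of the counts was 0.0514 ± 0.0045% (SD, n = 8) at baseline, 0.100 ± 0.0137% (n = 8) at day 7 and 0.0832 ± 0.0115% (n = 7) at day 14, 1.95 and 1.62 times baseline. No mouse after injury was within the baseline range. This share also moved with the most abundant transcripts. The 20 genes with the most counts over all mice together took 66.4 to 71.2% of the counts in baseline mice, 55.3 to 62.8% in day 7 mice and 63.9 to 66.2% in day 14 mice. With those genes left out of the total, the ratios were 1.49 and 1.41, and after TMM scaling the summed members were 1.42 and 1.39 times baseline. Without the 5 most abundant members these ratios were 1.47 and 1.504.

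The mice of a group differed together in these RNAs. At day 14, mouse 22 had the lowest level of 16 of the 30 members and mouse 24 the highest of 12. At day 7, mouse 14 was lowest for 11 and mouse 15 highest for 11. The summed members after TMM scaling were 538 to 691 CPM in baseline mice, 742 to 947 CPM in day 7 mice and 675 to 955 CPM in day 14 mice, where mouse 22 lay within the baseline range. The biological coefficient of variation estimated by edgeR had a median of 0.146 over the members and 0.136 over all genes tested.

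**Figure D3:**
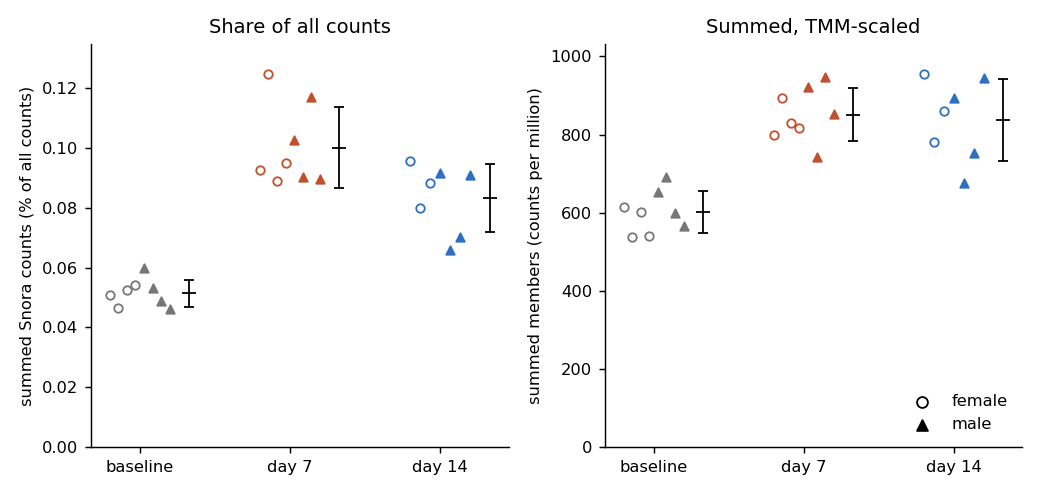
Summed counts of the 30 members in each mouse as a percentage of all counts (left) and as TMM-scaled CPM (right), with open circles for females, filled triangles for males and the mean ± SD in black. All day 7 and day 14 mice exceed the highest baseline mouse on the left (0.0598%), while 1 day 14 mouse (mouse 22) does not on the right.

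The sexes were compared over the time points together. In a fit over all time points 0 members differed between males and females (edgeR, 0.23% of all genes were called, DESeq2 called 0), and 1 had an unadjusted p under 0.05 (Snora15, log2 fold change 0.43 ± 0.18, higher in males, adjusted p = 0.427). Whether the change with time differed between the sexes was tested by an interaction. At day 7 it passed for 0 members (0 with an unadjusted p under 0.05, 0.00773% of all genes) and at day 14 for 0 members (1 with an unadjusted p under 0.05, Snora44, 0% of all genes). The median log2 fold change was 0.52 in females and 0.44 in males at day 7, and 0.65 and 0.48 at day 14. With 3 or 4 mice of each sex per time, differences of this size were not resolved. Positive values were found in 30 of 30 members in females and 29 in males at day 7, and in 30 in each sex at day 14.

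An intronic snoRNA is made from the same primary transcript as its host, so the hosts were examined beside the members. Of the 27 hosts 26 could be tested. At day 7, 1 rose (Dancr) and 1 fell (Tpt1), against 5.13% of all genes called in either direction. At day 14, 1 rose (Dancr) and 0 fell, against 0.787%. The hosts had medians of -0.09 (day 7) and 0.04 (day 14) on the log2 scale; with total count scaling it was 0.36 and 0.25, where all genes had medians of 0.48 and 0.22.

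Snora26 and its host moved by like amounts. Dancr had 11.6 to 17.7 CPM in baseline mice, 24.3 to 34.5 CPM at day 7 and 17.6 to 32.6 CPM at day 14, a log2 fold change of 0.98 ± 0.11 (adjusted p = 3.21e-07) and 0.83 ± 0.11 (adjusted p = 4.94e-05). Every stretch of 75 bases of Snora26 also lies in an annotated Dancr transcript, so their reads cannot be fully told apart. The same holds for 14 of the 30 members, among them Snora24, Snora33, Snora52 and Snora64. Snora24 and its host Snhg8 also both rose in the test without the fold threshold (Snhg8 0.54 ± 0.12, adjusted p = 0.0018, and 0.53 ± 0.12, adjusted p = 0.0194).

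For other members the host went the other way at day 7. Tpt1 fell from 762 to 928 CPM at baseline to 425 to 601 CPM at day 7 (log2 fold change -0.68 ± 0.07, adjusted p = 7.08e-08), while its intronic Snora31 rose. Eef1b2 had a log2 fold change of -0.40 ± 0.06 (adjusted p = 6.75e-05) against 1.04 for Snora41. At day 14, Tpt1 and Eef1b2 were at -0.20 and -0.08, with adjusted p of 0.157 and 0.666. Under total count scaling host values shift up with all other genes, and 24 of the 26 hosts were then positive at day 7.

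Over the 29 members with a tested host, the member's log2 fold change exceeded that of the host in 26 at day 7 and 28 at day 14, with a median difference of 0.41 and 0.50. When the level of the host in each mouse was put into the member's offset, 12 members were called higher at day 7 (background 3.81%) and 8 at day 14 (background 0.631%). Of the 11 and 14 members called without it, 8 and 7 were among them. Snora26 (0.08, adjusted p = 0.334, and 0.09, adjusted p = 0.615) and Snora24 (0.39, adjusted p = 0.217, and 0.43, adjusted p = 0.407) were then not called. Every stretch of 75 bases of Snora26 and of Snora24 also lies in a transcript of its host. The reads of member and host thus cannot be fully told apart, so for these members this fit cannot show a change beyond the host. Snora41 (1.44 and 1.17) and Snora31 (1.45 and 0.91) were called at both days. As a description over members, some of which share a host, the log2 fold changes of member and host had a Pearson correlation of 0.08 (day 7) and 0.18 (day 14, n = 29).

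**Figure D4:**
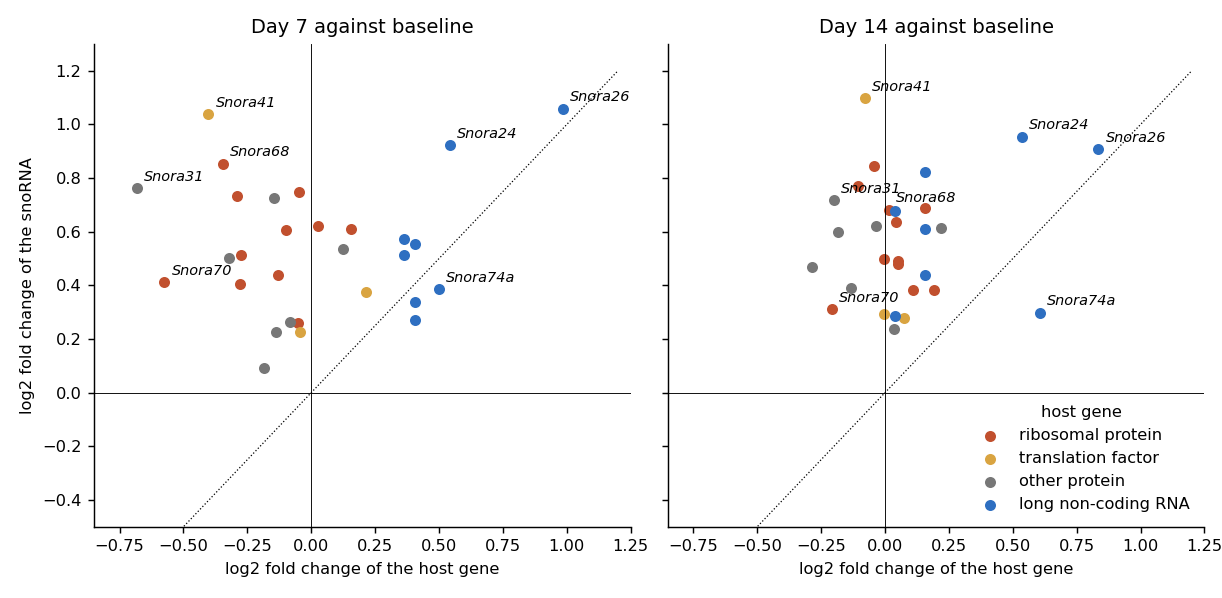
Log2 fold change from baseline of each of 29 snoRNAs (vertical axis) against that of its host gene (horizontal axis) at day 7 (left) and day 14 (right), coloured by the kind of host. The dotted line marks equal change: 26 points lie above it at day 7 and 28 at day 14, and Snora26 lies close to it. The reads of Snora26 and of its host Dancr cannot be fully told apart.

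By kind of host, the members in ribosomal protein genes were at a log2 median of 0.61 at day 7 (6 of 11 were DEGs) and 0.50 at day 14 (5 of 11), while the 11 host genes were at -0.13 and 0.04. Members in long non-coding RNAs were at 0.51 (2 of 9) and 0.61 (5 of 9), with hosts at 0.50 and 0.53. Members in translation factor genes were at 0.37 (1 of 3) and 0.29 (1 of 3), and those in other protein-coding genes at 0.50 (2 of 7) and 0.60 (3 of 7). These counts stand beside 3.82% and 0.697% of all genes, and the difference between the kinds was not tested.

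Some members share a host. In Snhg12, Snora16a, Snora44 and Snora61 had log2 fold changes of 0.56, 0.27 and 0.34 at day 7 and of 0.82, 0.61 and 0.44 at day 14, when Snhg12 itself was at 0.41 ± 0.17 (adjusted p = 0.0918) and 0.16 ± 0.18 (adjusted p = 0.789). In Snhg7, Snora17 was at 0.57 and 0.68 and Snora43 at 0.51 and 0.28. Snora64 and Snora78 lie on opposite strands of the Rps2 and Snhg9 locus, and their values were 0.75 and 0.12 at day 7. The differences between members of a host were not tested.

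Over the 30 members, the correlation of the log2 fold change with length was -0.09 at day 7 and -0.21 at day 14, with GC content -0.27 and -0.07, and with the baseline log2 CPM -0.13 and -0.22. The members share libraries and some share hosts, so these are descriptions.

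The genes of the H/ACA particle and its assembly were examined as a group. In either direction 5.13% of all genes were DEGs at day 7 and 0.787% at day 14, so few or no calls in lists of this size say little about the list. Of the 4 core proteins 0 were DEGs at either day. Dkc1, the pseudouridine synthase, had log2 fold changes of 0.14 ± 0.11 (adjusted p = 0.384) and 0.03 ± 0.11 (adjusted p = 0.96), Nhp2 of -0.23 ± 0.12 (adjusted p = 0.197) and 0.02 ± 0.13, and Gar1 of 0.28 ± 0.21 (adjusted p = 0.362) and 0.01 ± 0.21. Nop10 rose slightly at day 7 (0.22 ± 0.07, adjusted p = 0.0322). Of 11 assembly and trafficking genes, which include Naf1, Shq1, Nolc1 and Wrap53, 0 were DEGs at either day, with medians of -0.01 and -0.05. With total count scaling, core and assembly medians at day 7 were 0.64 and 0.45 beside 0.48 over all genes.

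Of 5 genes for trimming and decay of RNA 3′ ends 0 were DEGs. Zcchc7, a cofactor of the nuclear exosome, was at 0.33 ± 0.08 (adjusted p = 0.00456) at day 7, and Parn, a poly(A)-specific ribonuclease that matures H/ACA RNAs, at 0.16 ± 0.11 (adjusted p = 0.322). Of 12 stand-alone pseudouridine synthases, which work without a guide RNA, 0 were DEGs, with Pus3 at 0.48 ± 0.13 (adjusted p = 0.0112) at day 7. Of 13 RNA polymerase I subunits, 1 was a DEG at day 7, namely Polr2h, which RNA polymerases share (0.68 ± 0.17, adjusted p = 0.00485), and 0 at day 14, shares near those of all genes. Of the 4 C/D core proteins 0 were DEGs, with Nop58 at 0.49 ± 0.10 (adjusted p = 0.00102) at day 7.

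Other classes of short non-coding RNA also held members that rose, beside 3.82% and 0.697% of all genes at day 7 and day 14. Of 26 C/D box snoRNAs tested, 6 rose at day 7 and 9 at day 14, with median log2 fold changes of 0.42 and 0.58. At each day 2 of the 26 were negative, the lowest at day 7 being Snord104 (-0.36) and Snord23 (-0.35), and 1 was lower at day 7 by the adjusted p alone. Of 7 Cajal body RNAs, which guide modification of spliceosomal RNAs, 4 and 2 rose, with medians of 0.60 and 0.46. Scarna10 rose by 1.21 ± 0.09 (adjusted p = 1.32e-09) and 0.78 ± 0.10 (adjusted p = 2.22e-05), and Scarna17 also rose at both days (0.96 ± 0.19 and 0.82 ± 0.20). Scarna6 (0.60 ± 0.08) and Scarna2 (0.63 ± 0.07) rose at day 7. Of 6 other structural RNAs, 4 and 2 rose, with medians of 0.71 and 0.51. Terc, the telomerase RNA, which also has an H/ACA domain, had 1.22 to 2.92 CPM at baseline and 2.74 to 5.72 CPM at day 7 (log2 fold change 0.98 ± 0.17, adjusted p = 0.000177), and was at 0.54 ± 0.18 at day 14 (adjusted p = 0.136). Rnu12, the U12 RNA of the minor spliceosome, was at 0.82 ± 0.09 and 0.80 ± 0.10, and the U11 RNA Rnu11 at 0.96 ± 0.13 and 0.69 ± 0.14. Rpph1, the RNA of ribonuclease P, rose at day 7 (0.60 ± 0.09).

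The ranges of these classes overlapped with that of the H/ACA box snoRNAs, and no difference between the classes was tested. The ratio of summed H/ACA to summed C/D box snoRNA counts, which needs no scaling, was 1.497 ± 0.13 (SD, n = 8) at baseline, 1.75 ± 0.13 (n = 8) at day 7 and 1.74 ± 0.18 (n = 7) at day 14. The groups overlapped, with a range of 1.31 to 1.71 (baseline), 1.57 to 1.97 (day 7) and 1.51 to 1.96 (day 14).

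**Figure D5:**
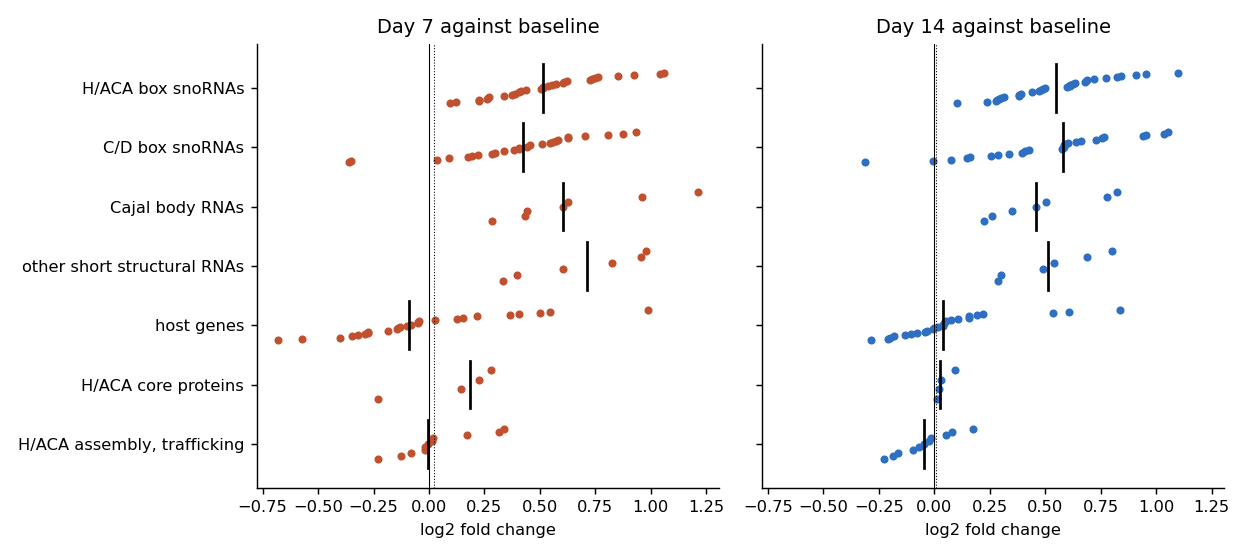
Log2 fold change from baseline at day 7 (left) and day 14 (right) of the tested genes of 7 lists, one point per gene, with the median of the list as a black bar and the median of all genes tested as a dotted line. The 4 lists of short RNAs have medians of 0.42 to 0.71 at day 7, whereas host genes, core proteins and assembly genes have medians of -0.09 to 0.18.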

How the data were processed

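The deposited files hold whole counts of read fragments per gene symbol for 23 mice. Per the labels and the paper, the authors depleted total RNA of ribosomal RNA, made stranded libraries, sequenced paired reads of 75 bases, checked and trimmed them (FastQC, Trim Galore, cutadapt), aligned them to mm10 with STAR 2.5.2a and counted uniquely mapped fragments per gene with featureCounts. The gene annotation and the strand setting of the counting are not given in the sources used here. Unique mapping leaves out reads that fit more than 1 place, and fragments of a host RNA that crosses a snoRNA may be counted for it.

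Symbols starting with Snora were taken, and members needed at least 10 counts in 7 mice. The members and all gene lists were chosen with earlier results of these data known. Total counts ranged from 7059890 to 9567446 per mouse; 3 counts, taken as the smallest detectable share, are 3.14e-05 to 4.25e-05% of them, which covers counting error only. edgeR 4.0.16 (limma 3.58.1, R 4.3.3) was used with TMM scaling, filterByExpr, estimateDisp, robust glmQLFit and glmQLFTest in 1 model over the 23 mice that holds time and sex (12195 genes). The interaction was taken from a fit with 6 groups of sex and time (12933 genes) and judged by the adjusted p alone. Two-sided p-values were adjusted over all genes tested with the Benjamini-Hochberg method. Standard errors were derived from the log2 fold change and the root of its F value, so they restate the test.

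Coordinates and sequences come from GENCODE vM21 (GRCm38, the build called mm10). Hosts span the snoRNA on the same strand in GENCODE. For 3 members the host is a gene that spans the snoRNA in RefSeq for GRCm38.p6, where the strand was not checked. The H box is the central ANANNA with most unpaired bases in the RNAfold 2.7.2 structure. Stretches of 75 bases of each member were searched for in the transcripts of other genes. Named are all members called at either day. Values by mouse are given for members called at both days, for the 3 largest and 3 smallest changes at each day, for the most abundant member per length and for Snora16a, Snora41 and Snora52, while Snora7a was added after its values were seen. C/D box snoRNAs are given by counts, and other listed genes by value where called. Members of a shared host are given side by side. Some single genes and a sequence are not reported here. Tests were tested on simulated data with known changes.

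Alternatives were DESeq2 1.42.0, its size factors in edgeR, total count and upper quartile scaling, no low-count filter, at least 10 counts in every mouse, no fold threshold, no sex covariate, a fit of only the mice compared, the host level in the offset (prior count 2), and each mouse left out in turn. Tables and plots used Python 3.11.15 with pandas 2.3.3, numpy 2.4.6, matplotlib 3.10.9 and scipy 1.17.1.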

Additional observations from a re-analysis of the deposited data

Results flagged for a closer look

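In each group, the highest and the lowest mouse of every member and of their sum were compared with Dixon's 95% critical values. Of 93 groups of values, 6 had a mouse that stood apart, and chance alone flags about 1 in 20. At day 14, mouse 24 was the highest for Snora15 (4.64 CPM, the others 1.76 to 2.80), Snora62 (5.30 CPM, the others 3.26 to 3.98) and Snora69 (3.53 CPM, the others 2.23 to 2.76). Mouse 11 was the lowest for Snora65 at day 7 (3.45 CPM, the others 4.72 to 5.51), and mouse 14 for Snora30 (9.64 CPM, the others 13.8 to 15.7). Mouse 6 was the highest for Snora68 at baseline (109 CPM, the others 69.8 to 88.2).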

How the results depend on the processing

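At day 7, 11 members were called, and 14 at day 14. Scaling by total counts, under which the median of all genes was 0.48 and 0.22, gave 28 and 23 members, with medians of 0.97 and 0.76, or 0.49 and 0.54 relative to all genes. At both days that scaling also called many more of all genes higher than TMM scaling did. Its member counts therefore cannot be set directly beside those under TMM scaling. No fold threshold gave 21 members at day 7. The host level in the offset gave 8 members at day 14, and Snora44 reversed at day 7 (-0.19). Leaving out each mouse gave 9 to 13 members at day 7 and 9 to 14 at day 14, the 9 at day 14 without mouse 24, and 0 in the comparisons of day 14 with day 7, of the sexes and of the interaction. Without the 20 most abundant genes the summed share was 1.49 and 1.41 times baseline instead of 1.95 and 1.62. All other settings gave 9 to 12 members at day 7 and 12 to 18 at day 14. Counts of all genes called moved between 509 and 815 at day 7 and 65 and 104 at day 14 as mice were left out. The minimum of 10 counts in every mouse left 24 members. DESeq2 was not run for the interaction. No Snora symbol other than the members passed the low-count filter, so the median over all tested symbols was the same. No paired analysis was possible because the mice of the groups are different animals with no shared number.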

Other observations

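The ratio of summed H/ACA to summed C/D box snoRNA counts ranged from 1.82 to 1.96 in the 3 female and 1.51 to 1.72 in the 4 male mice at day 14, without overlap, while at day 7 it was 1.65 to 1.78 in females and 1.57 to 1.97 in males, and at baseline 1.399 to 1.62 and 1.31 to 1.71. This split was seen after the values were computed and was not tested. The 5 Snora symbols below the minimum together had 8 to 15 counts per baseline mouse, 12 to 35 per day 7 mouse and 14 to 23 per day 14 mouse, with overlapping groups.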
